A study of Homo sapiens with 96 samples.

Results

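The comparison described here sets K562 cells of the line labelled LF against K562 cells of the line labelled SF, both grown with DMSO, the solvent control. K562 is an established human line, derived from blast-phase chronic myeloid leukaemia, that expresses erythroid and megakaryocytic genes. The members are the 6 libraries whose labels give LF or SF together with DMSO, 3 of each, out of 96 libraries in the series, and every gene counted in them. LF and SF belong to a table of 30 libraries of 5 lines, EV, dLRRS and dCxxC being the other names, each with 3 libraries with DMSO and 3 with the ligand 5-Ph-IAA. The labels give no meaning for these names; in the working description of the comparison LF and SF are 2 forms of KDM2B. The labels do not state the dose, the time of treatment, the promoter of the construct, whether each line is a clone or a pool, or whether the endogenous KDM2B of these lines carries a degron tag. LF and SF are separate lines, so the construct and any other difference between lines grown apart cannot be told apart. Nothing in the labels says that the 3 libraries of a group came from separate cultures, so the p-values measure the spread between these libraries, which may be technical.

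KDM2B is the subunit of the variant Polycomb complex PRC1.1 that binds unmethylated CpG DNA through its CxxC zinc finger. PRC1.1 places ubiquitin on histone H2A and is known for holding developmental genes at a low level. KDM2B is made in a long form that carries a JmjC histone demethylase domain and in a short form that starts after it, and both keep the CxxC finger, the PHD finger, the F-box and the leucine-rich repeats. The integrated stress response, which recurs below, is the programme in which phosphorylation of eIF2α favours translation of ATF4, a transcription factor that switches on genes of amino acid supply, redox balance and growth arrest.

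Library totals were 12515655, 14917155 and 12863852 counts for LF and 16053923, 17827151 and 17402054 counts for SF. Levels are given below as CPM, counts per 1000000 of the TMM-corrected library size, and differences as LF minus SF on the log2 scale with their standard error. Calls required both an adjusted p below 0.05 and a log2 difference beyond 0.585 in either direction. Markers of K562 were present in both lines and none of those checked was called. GATA1, the erythroid master regulator, was at 164, 186 and 180 CPM in LF and 156, 162 and 161 CPM in SF, without overlap (adjusted p = 0.0494), and BCR was at 182 to 194 CPM in LF and 189 to 209 CPM in SF. TFRC, the transferrin receptor, differed by -0.46 ± 0.10 (adjusted p = 0.000873) and ALAS2, the first enzyme of haem synthesis in red cells, by 0.44 ± 0.05 (adjusted p = 1.46e-08), both too small for a call. TFRC reached a call without LF library 1, at -0.60. Of 14 lymphoid markers 10 stayed under 1 CPM in all 6 libraries, and of 14 fibroblast and epithelial markers 9 did. The summed lymphoid markers came to 20.5 to 22.8 CPM in LF and 13.6 to 17.6 CPM in SF, and their part in the results was not tested. LF library 1 lay nearer to SF than the other LF libraries: among the 512 genes called higher in LF with a mean of at least 2 CPM, library 1 was the lowest of the LF libraries in 336. Without it 1241 genes were called, against 1182 with it.

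KDM2B itself was measured first, since its level checks the labels. Its counts were 2462, 2217 and 2478 CPM in the LF libraries and 895, 924 and 874 CPM in the SF libraries, against 82.1 ± 2.36 CPM (SD, n = 3) in EV. Every LF library thus lay above every SF library, and both lines lay above EV. The difference between LF and SF was 1.41 ± 0.07, with an adjusted p of 2.11e-17 in edgeR's quasi-likelihood test, adjusted by Benjamini-Hochberg over every gene tested, as for each adjusted p below. With the ligand KDM2B stood at 2509 ± 284 CPM in LF and 980 ± 95.2 CPM in SF (SD, n = 3). In the remaining lines with DMSO it stood at 2929 ± 166 CPM in dLRRS and 3622 ± 60.6 CPM in dCxxC. Reads are counted per gene at 12:121429096-121581023 (hg38, minus strand), so reads of the construct and of the endogenous gene are not separated, and a longer transcript gives more reads per molecule.

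No partner of KDM2B in PRC1.1 was called. BCOR, the scaffold of PRC1.1, was at 227, 251 and 253 CPM in LF and 238, 254 and 234 CPM in SF, a difference of 0.01 ± 0.05 (adjusted p = 0.911). PCGF1, the PCGF subunit that defines PRC1.1, differed by 0.04 ± 0.10 (adjusted p = 0.835). RING1, one of its E3 ligases, was at 42.9, 44.4 and 38.9 CPM in LF and 34.8, 36.3 and 37.4 CPM in SF, and its difference of 0.22 ± 0.07 had an adjusted p of 0.0280 but stayed under the fold required for a call. RNF2, the other ligase, differed by -0.16 ± 0.07 (adjusted p = 0.107), and KDM2A, the paralogue of KDM2B, by -0.12 ± 0.06 (adjusted p = 0.156). Among the DMSO groups BCOR was highest in dCxxC, at 561 ± 7.75 CPM, and lowest in dLRRS, at 170.8 ± 2.996 CPM (SD, n = 3). Of the 10 PRC1.1 genes KDM2B alone was called (10%, against 7.43% of all genes called in either direction). Of 12 PRC2, 12 canonical PRC1 and 14 other variant PRC1 genes tested none was, and lists this short were not tested against that share. Among 16 genes of KDM2A and the other JmjC demethylases, 2 were called, both higher in LF (12.5%, against 5.59% of all genes given below). These were KDM4A, a histone H3 demethylase, at 47.4, 58.3 and 50.4 CPM in LF against 28.1, 35.5 and 29.7 CPM in SF, and KDM6B, the H3K27 demethylase, with a difference of 0.60 ± 0.09. KDM6B lost its call without LF library 2, without LF library 3 and without SF library 1.

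Beyond KDM2B, the lines differed in many genes, most of them at low levels and most of them higher in LF. Of 15910 genes tested 1182 were called (7.43%), of which 890 were higher in LF (5.59%) and 292 were lower in LF (1.84%). Higher genes thus made up 75.3% of the calls, while the median difference over all genes was 0.00. In 1112 of the 1182 called genes the LF and SF libraries did not overlap. A call itself favours separated libraries, and among all genes tested, called or not, 36.5% did not overlap. The called share was largest between 1 and 10 CPM and small at high levels: 10.5% of genes under 1 CPM, 15.4% of genes from 1 to 10 CPM, 3.46% of genes from 10 to 100 CPM and 1.67% of genes at 100 CPM or more were called. Genes called higher in LF had a median level of 3.54 CPM in LF and 1.70 CPM in SF, and stood at a median of 3.06 CPM in EV. Genes called lower in LF had a median of 1.62 CPM in LF, 3.19 CPM in SF and 2.53 CPM in EV. The called genes were spread over the genome, with 5.44% to 10.6% called on each of the 23 nuclear chromosomes, and the chromosome medians of genes at 5 CPM or more lay between -0.08 and 0.05.

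**Figure D1:**
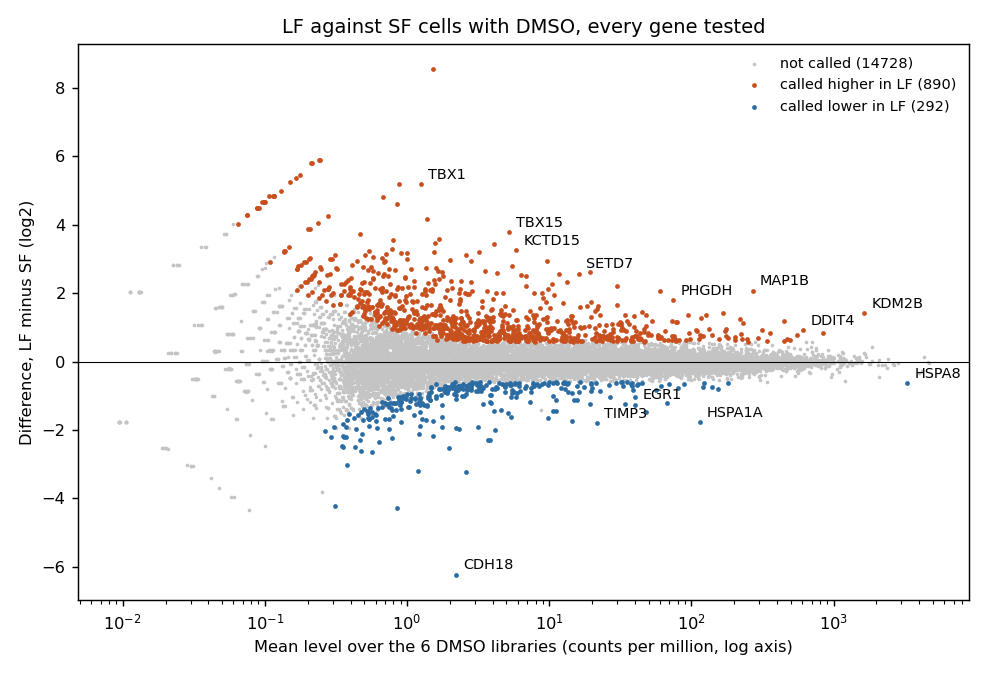
Difference between LF and SF with DMSO (log2, vertical axis) against the mean level over the 6 libraries (CPM, log axis) for every gene tested, 1 point per gene. Orange points are the 890 genes called higher in LF and blue points the 292 called lower; the called genes crowd at low levels, and few genes above 100 CPM, among them KDM2B, MAP1B and HSPA1A, stand away from 0.

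Genes were ranked among called genes averaging 2 CPM or more, with no overlap and with no clone, antisense or pseudogene name. The 15 with the largest differences towards LF include several regulators of development. TBX15, a T-box transcription factor of the limb and skeleton (hg38 1:118883046-118989556), was at 6.42, 12.1 and 10.6 CPM in LF and 0.565, 0.845 and 0.693 CPM in SF. These levels gave a difference of 3.78 ± 0.22 (adjusted p = 3.57e-17), and EV, at 5.64 CPM, lay between them. KCTD15, an inhibitor of AP-2 transcription factors, was at 10.8, 9.13 and 11.96 CPM in LF and 0.628, 1.18 and 1.44 CPM in SF, while EV was higher than both at 29.7 CPM. RUNX2, the master regulator of bone-forming cells, was at 6.17, 6.76 and 5.44 CPM in LF and 0.377, 1.69 and 0.808 CPM in SF, and at 0.489 CPM in EV. PRDM9, the meiotic histone methyltransferase that places recombination hotspots, was at 5.52, 6.90 and 4.97 CPM in LF and 1.005, 0.282 and 0.635 CPM in SF. These 4 genes, like the others of this group, were chosen to have no overlap between LF and SF, so their separation is no finding. SUPT3H overlaps RUNX2 in the annotation, and among the 15 genes of this group 3 overlap another tested gene, so that reads of both cannot be told apart without strand information.

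Enzymes, channels and adhesion genes stood beside them. SETD7, a lysine methyltransferase, was at 23.2, 29.8 and 29.8 CPM in LF and 4.77, 4.56 and 4.62 CPM in SF, and its difference was 2.57 ± 0.11 (adjusted p = 4.31e-22). FAM107B was at 24.5, 38.7 and 37.1 CPM in LF and 5.09, 6.08 and 5.02 CPM in SF. TDO2, which opens the indole ring of tryptophan, was at 8.69, 11.2 and 9.01 CPM in LF and 1.32, 1.52 and 1.33 CPM in SF, and EV was at 1.27 CPM. The other genes of this group were PALM2AKAP2, SLC22A15, SCN4A, a muscle sodium channel, FHL1, HECW2, a ubiquitin ligase, IL20RB, a cytokine receptor chain, FERMT2, which activates integrins, and S100P, with differences between 2.51 (S100P) and 3.45 (PALM2AKAP2). Among the 15 genes, EV lay between LF and SF in 10, below both in 2 and above both in 3.

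Genes above 100 CPM differed less. MAP1B, a microtubule-binding protein of neurons, was at 345, 485 and 477 CPM in LF and 95.3, 114 and 103 CPM in SF, a difference of 2.07 ± 0.08 (adjusted p = 3.58e-17), and EV was at 272 CPM. NIBAN1, a stress-induced regulator of translation, was at 127, 193 and 174 CPM in LF and 65.7, 76.0 and 63.6 CPM in SF. Both showed LF library 1 as the lowest LF library, still above every SF library. Of the remaining 4 genes of this kind 3 belong to the integrated stress response list given below, and the last was KDM2B.

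In the other direction, and in a ranking with the same limits, the largest difference was that of CDH18, a neuronal cadherin (hg38 5:19471296-20575873). It was at 4.40, 4.96 and 3.75 CPM in SF and at 0.162, 0.00 and 0.00 CPM in LF, which is 223 counts against 2. The ratio of SF to LF was 87.4, with an exact 95% counting interval from 23.9 to 726 that covers counting error only. Among the other lines CDH18 stood at 0.0480 CPM in EV, 0.126 CPM in dLRRS and 0.256 CPM in dCxxC, so among the 5 lines SF alone had it above 1 CPM. TIMP3, an inhibitor of matrix metalloproteinases, was at 10.6, 9.33 and 9.17 CPM in LF and 36.6, 31.8 and 32.6 CPM in SF, a difference of -1.80 ± 0.10 (adjusted p = 2.87e-18). COL23A1, a transmembrane collagen, was at 7.31, 6.02 and 6.76 CPM in LF and 21.9, 22.3 and 22.6 CPM in SF. ROBO2, an axon guidance receptor, was at 4.39, 4.80 and 5.05 CPM in LF and 14.6, 14.4 and 15.4 CPM in SF. The absence of overlap in these genes, too, was a condition of their choice.

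GABRA2, a GABA receptor subunit, and GCNT1, which branches O-linked glycans, differed by -1.98 ± 0.27 and -2.30 ± 0.20. ZBTB16, a zinc-finger repressor of progenitor cells known as PLZF, was at 0.812, 1.49 and 0.388 CPM in LF and 3.52, 3.32 and 3.81 CPM in SF. LRATD1, DCAF4L2, TMEM14A, IGSF10, FSTL5 and LRRC7 made up the rest of the list with HSPA1A and HSPA1B, and differences ran from -2.29 (LRATD1) to -1.45 (LRRC7). Among these 15 genes EV lay below both lines in 9, between them in 4 and above both in 2, the latter being HSPA1A and HSPA1B, and 5 of the 15 overlap another tested gene. Of the genes above 100 CPM, ZFP36L2, which destabilizes AU-rich mRNAs, differed by -0.80 ± 0.06, MYO16, an unconventional myosin, by -0.75 ± 0.06, and IGFBP4, which binds insulin-like growth factors, by -0.62 ± 0.06.

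**Figure D2:**
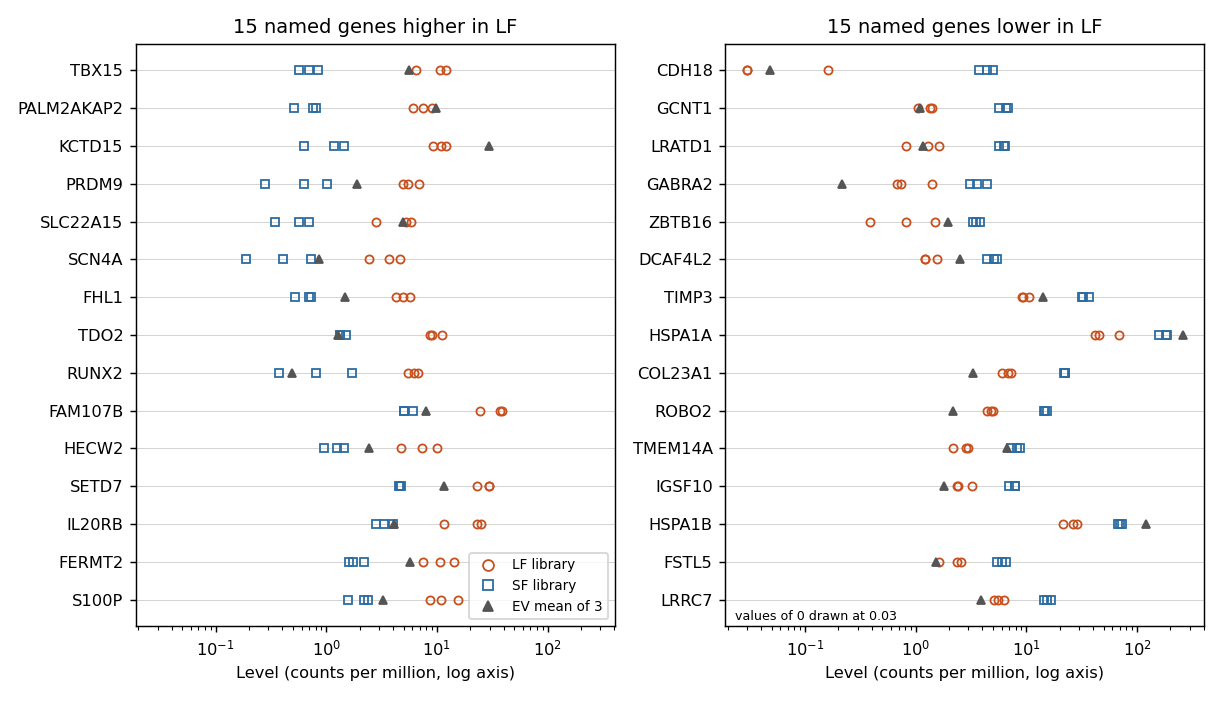
Levels (CPM, log axis) in each LF library (orange circles) and SF library (blue squares) with DMSO, and the mean of 3 EV libraries (grey triangles), for the 15 genes of at least 2 CPM with the largest difference in each direction; levels of 0 are drawn at the left edge. The genes were chosen among called genes with no overlap between LF and SF and with no clone, antisense or pseudogene name. EV falls on either side or between.

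Genes of the integrated stress response were higher in LF as a group. Of 26 list members tested, 21 were called higher in LF and none lower (80.8%, against 5.59% of all genes), and the median difference was 0.93, against 0.00 for all genes. Of the other members, SLC7A1 (0.57 ± 0.06), SHMT2 (0.52 ± 0.06), ATF4 (0.31 ± 0.05) and XPOT (0.15 ± 0.06) had adjusted p-values under 0.05 at differences too small for a call, and ASNS, asparagine synthetase, differed by -0.04 ± 0.14 (adjusted p = 0.872). The list was chosen with earlier results of these data known, and its count is given as a description. The LF libraries summed to 5260 to 6204 CPM over the list and the SF libraries to 3272 to 3767 CPM. The EV libraries summed to 2062 to 2096 CPM, the dLRRS libraries to 1665 to 1720 CPM and the dCxxC libraries to 2203 to 2424 CPM. Thus LF and SF both stood above the other 3 lines, and LF stood highest.

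The stress transcription factors and their regulators came first by role. DDIT3, also called CHOP, was at 32.1, 33.6 and 30.99 CPM in LF and 10.4, 11.7 and 11.1 CPM in SF, a difference of 1.54 ± 0.10 (adjusted p = 9.82e-16). ATF3, a stress-induced factor, was at 64.2, 71.8 and 69.1 CPM in LF and 24.0, 30.6 and 25.3 CPM in SF, and at 11.5 CPM in EV. TRIB3, a pseudokinase that restrains ATF4, was at 146, 202 and 202 CPM in LF and 65.6, 77.95 and 70.95 CPM in SF. In all 3 genes every LF library was above every SF library, while EV lay below both lines for ATF3 and TRIB3 and between them for DDIT3. CEBPG and CEBPB, partners of ATF4, differed by 0.92 ± 0.06 and 0.78 ± 0.08. MARS1 and MBD6 overlap DDIT3 in the annotation.

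Genes of serine and amino acid supply carried large differences. PHGDH, the first enzyme of serine synthesis, was at 88.0, 127 and 132 CPM in LF and 28.1, 40.7 and 31.9 CPM in SF, a difference of 1.79 ± 0.13 (adjusted p = 3.47e-10). PSAT1 and PSPH, the next enzymes of that pathway, differed by 1.25 ± 0.10 and 0.86 ± 0.08. LF library 1 was the lowest LF library for all 3 enzymes. The cystine carrier SLC7A11 differed by 0.97 ± 0.09, its partner SLC3A2 by 0.66 ± 0.07, and the leucine carrier SLC7A5 by 0.77 ± 0.10. Mitochondrial folate enzymes were higher too, with ALDH1L2 at 1.38 ± 0.12 and MTHFD2 at 0.59 ± 0.05, and PCK2, mitochondrial PEP carboxykinase, at 0.90 ± 0.12. MTHFD2 lay near the fold required for a call and lost it without LF library 2, without LF library 3 and without SF library 3, and SLC3A2 lost it without LF library 3. In a separate list of folate and amino acid transport genes, 4 of 15 were called (26.7%, against 5.59% of all genes), all higher in LF: CTH, which makes cysteine from cystathionine, with 1.37 ± 0.11, SLC1A4 with 1.18 ± 0.09, the glycine carrier SLC6A9 with 1.01 ± 0.10, and MTHFD1L with 0.65 ± 0.06, which lost its call without SF library 1.

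Growth-restraining members of the response were also higher in LF. DDIT4, an inhibitor of mTORC1, was at 801, 810 and 801 CPM in LF, at 379, 489 and 401 CPM in SF and at 73.2 CPM in EV. SESN2, a leucine sensor upstream of mTORC1, was at 206, 256 and 268 CPM in LF and 87.2, 103 and 82.8 CPM in SF. For both genes the order was EV, SF and LF with no overlap between SF and LF. CHAC1, which degrades glutathione, was at 40.6, 42.3 and 47.1 CPM in LF, at 17.9, 27.3 and 20.9 CPM in SF and at 3.36 CPM in EV. Secreted members were GDF15 (1.06 ± 0.10), STC2 (1.44 ± 0.09) and VEGFA (0.72 ± 0.07), and VLDLR, a lipoprotein receptor at under 4 CPM, had the largest difference (2.36 ± 0.33). Across the 26 members EV lay below both lines in 24 and between them in 2. LF library 1 was the lowest LF library in 24 of the 26; without it the list had 22 calls and a median of 0.997.

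Heat shock genes were lower in LF in part. Of 15 list members 4 were called lower in LF and none higher (26.7%, against 1.84% of all genes), with a list median of -0.22. HSPA1A, the stress-inducible HSP70, was at 68.3, 41.7 and 45.8 CPM in LF, at 183, 160 and 187 CPM in SF and at 259 CPM in EV, a difference of -1.77 ± 0.11 (adjusted p = 3.60e-11). Its near-identical copy HSPA1B was at 28.8, 21.4 and 26.3 CPM in LF and 73.4, 66.9 and 69.7 CPM in SF, and how reads were split between the copies is uncertain. DNAJB1, the HSP40 partner of HSP70, was at 117, 98.7 and 96.6 CPM in LF and 184, 164 and 179 CPM in SF. HSPA8, the constitutive HSC70, was at 3015, 2430 and 2368 CPM in LF and 4114, 3819 and 4092 CPM in SF, with a difference of -0.62 ± 0.05, and lost its call without LF library 2 and without LF library 3. The LF libraries were below the SF libraries in all 4 genes, and EV was above both. BAG3 (-0.43 ± 0.07), HSP90AA1 (-0.26 ± 0.06), HSPH1 (-0.22 ± 0.06) and DNAJA1 (-0.22 ± 0.07) had adjusted p-values under 0.05 at differences too small for a call, as did HSPA5, the chaperone of the endoplasmic reticulum (0.22 ± 0.04), and HSPB1, the small heat shock protein HSP27 (0.24 ± 0.07), towards LF. HSF1, the heat shock factor, differed by 0.09 ± 0.08 (adjusted p = 0.448). LF library 1 was the highest LF library in 13 of the 15 genes, and without it the list median was -0.34 with 4 calls.

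**Figure D3:**
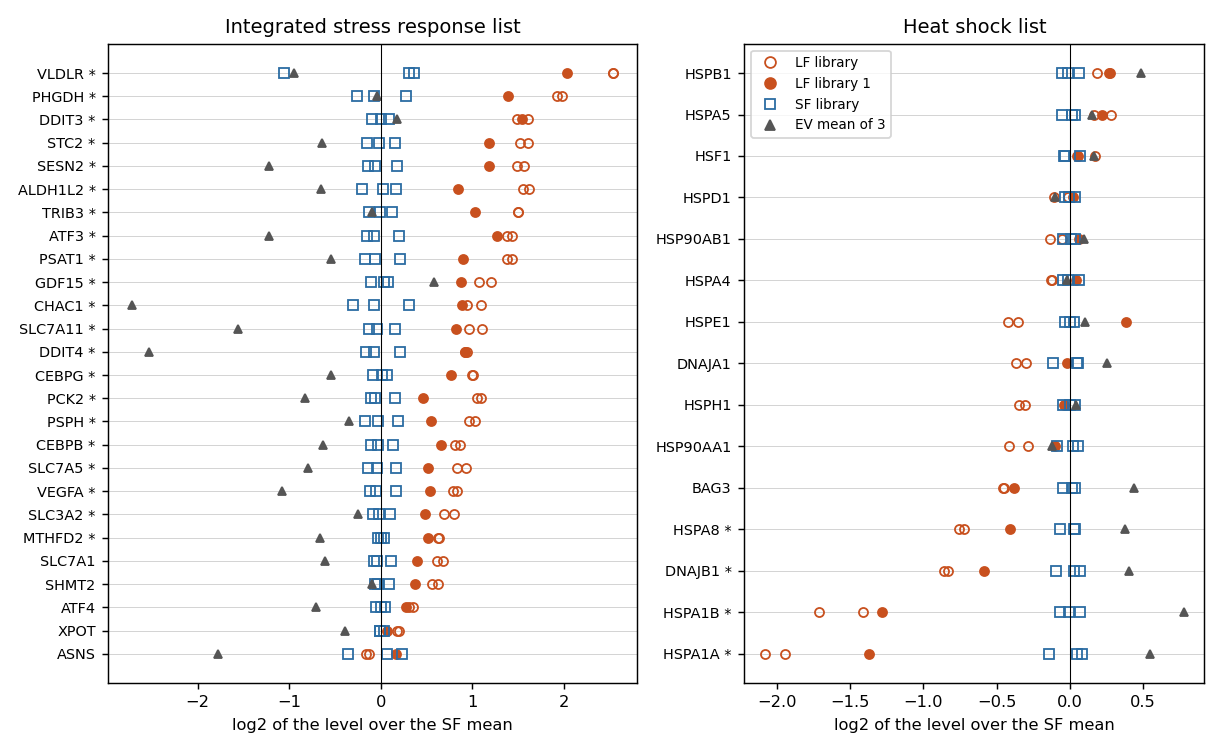
Level of each member of the integrated stress response list (left) and the heat shock list (right) in each library, as log2 of the level over the mean of the SF libraries; LF libraries are orange circles (library 1 filled), SF libraries blue squares, the EV mean a grey triangle, and an asterisk marks a called gene. The LF libraries lie to the right of SF in the stress response list except for ASNS, which overlaps SF, and to the left for HSPA1A, HSPA1B, DNAJB1 and HSPA8, and the filled symbol lies nearest to SF in most rows.

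The stretches of promoter below are shown because both groups of genes have a textbook binding motif: the element read by ATF4 with its C/EBP partners, TGATGNAA, and the heat shock element, whose core is GAANNTTC. Both strands were searched in RefSeq promoters (GRCh38.p14, 250 bases before to 50 after the start), and the second motif reads the same on both strands. TGATGNAA was found in 5 of the 21 stress response genes with a promoter in the table (23.8%), in 1.67% of promoters of the protein-coding genes tested and in 3.67% of all promoters of the table. Among protein-coding genes called higher in LF 4.79% of 564 promoters held it. GAANNTTC was found in 5 of 14 heat shock promoters (35.7%), in 4.55% of those of the protein-coding genes tested and in 6.87% of all promoters. The stretches run 5′ to 3′ on the strand of the gene, with the match in capitals. For ATF3 (chr1:212565186-212565253, plus strand) the match starts 191 bases before the start, for CHAC1 (chr15:40953232-40953299, plus strand) 209 bases before it, and for ASNS (chr7:97872439-97872506, minus strand) 68 bases before it. HSPA1A (chr6:31815407-31815474, plus strand) and HSPA1B (chr6:31827603-31827670, plus strand) have theirs 106 and 105 bases before the start.
ATF3: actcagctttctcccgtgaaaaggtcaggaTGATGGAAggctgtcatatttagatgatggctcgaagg
CHAC1: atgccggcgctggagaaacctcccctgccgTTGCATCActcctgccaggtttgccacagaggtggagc
ASNS: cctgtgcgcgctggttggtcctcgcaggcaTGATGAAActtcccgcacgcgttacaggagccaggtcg
HSPA1A: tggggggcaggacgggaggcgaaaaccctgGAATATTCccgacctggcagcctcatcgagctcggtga
HSPA1B: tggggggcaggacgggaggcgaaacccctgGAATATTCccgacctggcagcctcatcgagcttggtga

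CHAC1 holds the motif on the opposite strand. Of the 5 stress response genes with the motif, ATF3, CHAC1 and SLC3A2 were called higher in LF, while ASNS and SLC7A1 were not called. Most called members of the list were not among these 5. The HSPA1A and HSPA1B stretches share 66 of 68 bases, and both genes were called lower in LF. The other 3 heat shock genes with a match were HSPA8, called lower, and DNAJA1 and HSPB1, neither of them called. DNAJA1 differed by -0.22 ± 0.07 and HSPB1, in the other direction, by 0.24 ± 0.07. DNAJB1, called lower, was not among the genes found to hold the motif. A match is a description of letters and not a measured binding site.

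Developmental transcription factors, which PRC1.1 is known to bind, were higher in LF where they were called. Of 29 tested, 8 were called higher and none lower (27.6%, against 5.59% of all genes), with a median difference of 0.35, which was 0.23 without LF library 3. PAX6, a regulator of eye and brain, was at 46.5, 50.4 and 54.5 CPM in LF, at 30.1, 32.4 and 27.1 CPM in SF and at 17.6 CPM in EV. HAND2, a regulator of heart and limb, was at 9.58, 9.26 and 8.39 CPM in LF and 4.77, 5.52 and 6.12 CPM in SF, and ZIC2 at 11.9, 14.7 and 13.98 CPM in LF and 8.85, 8.05 and 9.53 CPM in SF. These 3 were the called members above 3 CPM, and their libraries did not overlap, although ZIC2 lost its call without LF library 2 and without SF library 2. TBX1, a regulator of the pharyngeal arches, had 97 counts in LF and 3 in SF, a ratio of 41.2 with a counting interval from 13.7 to 203, and EV stood above both at 4.74 CPM. FOXA2 was at 0.893, 1.42 and 0.621 CPM in LF and at most 0.173 CPM in SF, and TFAP2A differed by 1.06 ± 0.27. FOXD1 had 8 counts in LF and none in SF, which is at least 3.40-fold higher against a floor of 3 counts over the SF libraries. FOXD1 lost its call without LF library 3, and NR2F1 (14 counts in LF and 4 in SF) lost its call in 4 of the 6 fits without 1 library. Across the list EV lay above both lines in 19 of 29 genes. Of 18 HOX genes 2 were called higher and none lower (11.1%, against 5.59% of all genes), with a median of 0.08, which was 0.02 without SF library 1 and 0.14 without SF library 2. HOXA3 had 9 counts in LF and none in SF, which is at least 3.83-fold higher, and its call held in all 6 fits without 1 library. HOXA3 was at 1.82 CPM in dCxxC with DMSO, and it too was tested because of lines other than LF and SF.

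Growth factor and adhesion genes followed the same direction in most of the called members. Of 29 tested, 9 were called higher in LF (31.03%, against 5.59% of all genes) and 1 lower (3.45%, against 1.84%), with a median of 0.50. With the 6 libraries alone and the column number as a replicate block, the median was 0.28, with 7 calls towards LF. PDGFA was at 2.84, 3.45 and 2.95 CPM in LF and 0.440, 1.18 and 0.520 CPM in SF, while PDGFB, the partner chain, was at 0.812, 0.744 and 0.388 CPM in LF and 2.07, 1.52 and 1.85 CPM in SF. The 2 chains thus differed in opposite directions. JAG2 and JAG1, ligands of Notch, differed by 0.77 ± 0.10 and 2.90 ± 0.46, CD44 by 0.61 ± 0.20, ERBB3 by 1.79 ± 0.37 and INSR, the insulin receptor, by 1.08 ± 0.33. CD44 lost its call in 4 of the 6 fits without 1 library and INSR without LF library 1 and without SF library 2. ITGB4 was called although its libraries overlapped, and lost its call in 3 of those fits. FGFR1 had 5 counts in LF and none in SF, at least 2.13-fold higher, and kept its call in 1 of the 6 fits without 1 library. It was at 13.4 CPM in dCxxC with DMSO and was tested because of lines other than LF and SF. Without LF library 1 the list had 6 calls towards LF in place of 9.

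Markers of blood lineages moved in small groups. Of 9 megakaryocyte genes 3 were called lower in LF and none higher (33.3%, against 1.84% of all genes), with a list median of -0.80. ITGA2B, the platelet integrin αIIb, was at 8.45, 10.0 and 9.79 CPM in LF and 17.9, 16 and 15.8 CPM in SF, a difference of -0.81 ± 0.14 (adjusted p = 1.66e-05), and EV was at 20.6 CPM. ITGB3, its partner chain, differed by -0.92 ± 0.27 and FLI1, the lineage factor, by -1.05 ± 0.38. ITGB3 lost its call in 3 and FLI1 in 4 of the 6 fits without 1 library, and the list had 1 to 4 calls over those fits. With the ligand the same list had 3 calls towards LF and 1 away from it, with a median of -0.05. Of all genes 7.48% were called higher in LF with ligand and 1.95% lower. Of 8 myeloid genes 3 were called higher in LF (37.5%, against 5.59% of all genes). ITGAM, the CD11b chain, was at 2.92, 2.30 and 2.10 CPM in LF and 0.754, 0.507 and 0.404 CPM in SF, CEBPD was higher in LF too, and CEBPB is also a stress response member. The summed myeloid list came to 140 to 156 CPM in LF and 103 to 111 CPM in SF, 13 of its 20 genes stayed under 1 CPM in all 6 libraries, and its part in other results was not tested. The erythroid list summed to 6213 to 6798 CPM in LF and 6633 to 7087 CPM in SF. Of its 32 genes 3 were called (9.38%, against 5.59% of all genes), all higher in LF: RHD, the Rh antigen, with 0.94 ± 0.11, EPB42 with 0.90 ± 0.24 and TMCC2 with 0.69 ± 0.14. None of 7 globin genes was called. HBZ was at 150, 125 and 120 CPM in LF and 138, 138 and 125 CPM in SF, and HBA2 differed by 0.22 ± 0.19. In bulk RNA, fewer cells of a type and less RNA per cell cannot be told apart.

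Immediate-early and cell-cycle genes were split. EGR1, an early growth response factor, was at 25.1, 22.99 and 23.1 CPM in LF and 54.5, 62.2 and 53.9 CPM in SF, a difference of -1.26 ± 0.09 (adjusted p = 1.13e-13). FOS was at 2.19, 2.43 and 2.33 CPM in LF and 5.59, 5.41 and 5.25 CPM in SF, and JUNB differed by -0.59 ± 0.10. JUN (0.66 ± 0.09) and FOSL2 (1.08 ± 0.20) went the other way, so that members of the AP-1 family differed in both directions. Of the 18 genes of the list 2 were called higher (11.1%, against 5.59% of all genes) and 3 lower (16.7%, against 1.84%). JUN lost its call without LF library 3, and JUNB, near the required fold, with DESeq2, with DESeq2's size factors and in 3 of the 6 fits without 1 library. D-type cyclins differed in opposite directions. CCND1 was at 10.8, 13.5 and 9.71 CPM in LF and 26.6, 29.4 and 25.5 CPM in SF, and CCND2 was at 289, 321 and 334 CPM in LF and 149, 150 and 135 CPM in SF. The differences were -1.25 ± 0.11 for CCND1 and 1.12 ± 0.05 for CCND2, and EV lay between LF and SF for both. The other 24 of 26 cell cycle genes were not called, so 3.85% of the list was called in each direction. Of all genes 5.59% were called higher in LF and 1.84% lower. CDKN1A, the p21 inhibitor, was higher in LF by 1.03 ± 0.21, at 3.09, 3.92 and 3.42 CPM against 2.32, 1.35 and 1.501 CPM. It was the only one called of 5 cell-cycle inhibitors tested (20%, against 5.59% of all genes).

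Several programmes showed few calls or none. Of all genes 5.59% were called higher in LF and 1.84% lower, and the short lists here were not tested against these shares. IFIH1, a sensor of double-stranded RNA, was the only interferon response gene called of 17 (5.88%, higher in LF). Its libraries overlapped, and it lost its call in 4 of the 6 fits without 1 library. Of 17 genes of the NRF2 list SLC7A11 alone was called (5.88%, higher in LF), and it is shared with the stress response list. ZBTB16 was the only one called of 12 stem and progenitor genes (8.33%, lower in LF). Of 13 germline genes PAGE1 was called higher, at 2.68, 4.53 and 3.03 CPM in LF against 0.377, 1.07 and 0.808 CPM in SF, and PAGE5 lower, at 20.2, 16.9 and 15.6 CPM against 32.8, 37.9 and 37 CPM. Each made up 7.69% of the germline list. No gene was called among 26 of sterol and fatty acid synthesis, where FASN differed by -0.30 ± 0.12 and SCD by -0.10 ± 0.04. At differences too small for a call, 7 of the 26 had an adjusted p under 0.05 lower in LF and 1 higher. The list summed to 6349 to 6855 CPM in LF and 7313 to 7633 CPM in SF. None was called among 10 of antigen presentation, where B2M differed by 0.13 ± 0.06 and TAPBP by -0.04 ± 0.05. The 4 lymphoid and 5 fibroblast and epithelial markers tested, 13 mitochondrially encoded genes and 38 replication-dependent histone genes had no call either. Of the histone genes, 16 had an adjusted p under 0.05 towards LF at differences too small for a call, for example H1-2 with 0.42 ± 0.06.

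The contrast was set beside the same lines with the ligand 5-Ph-IAA, whose libraries are separate from the 6 used above. There 1501 of the same genes were called (9.43%), 1190 higher in LF (7.48%) and 311 lower (1.95%). Of the 890 genes higher with DMSO, 686 (77.1%) were also called higher with ligand, and they make up 57.7% of the ligand list. Of the 292 lower genes 130 (44.5%) were called lower again, or 41.8% of the ligand list. None was called in the opposite direction, and 1136 of 1182 kept their sign. At 10 CPM and above, 189 of 201 higher genes and 49 of 63 lower genes were called again. All 30 of the genes named above for the largest differences were called again and their libraries again did not overlap. TBX15 differed by 3.16 with ligand, CDH18 by -5.09, PHGDH by 2.05, DDIT3 by 1.62, HSPA1A by -2.15 and KDM2B by 1.36. Of the stress response list 22 of 26 were called higher with ligand (median 1.12), and of the heat shock list 4 of 15 were called lower (median -0.42).

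A test of whether the LF-SF difference itself changed with ligand called no gene of 15910 (0%) in edgeR's quasi-likelihood test. The smallest adjusted p was 0.653, 773 genes (4.86%) had an unadjusted p under 0.05, and DESeq2 called 1 gene. Across all genes the differences with DMSO and with ligand had a Pearson r of 0.64 and a Spearman rho of 0.67, given as a description since genes are not independent replicates and the lines are the same.

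**Figure D4:**
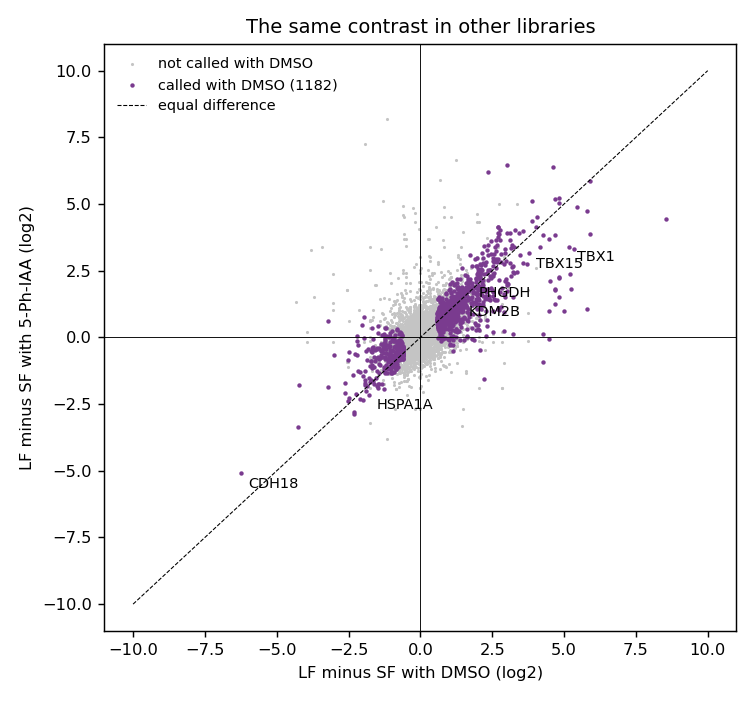
LF minus SF with 5-Ph-IAA (log2, vertical axis) against LF minus SF with DMSO (log2, horizontal axis) for every gene tested, with the 1182 genes called with DMSO in purple and the line of equal difference dashed. The purple points follow the line, with 1136 of the 1182 on the same side of 0 in both.

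Genes that respond to loss of KDM2B were read in the same contrast. In a separate table, K562 cells with a degron tag on KDM2B were left untreated or given ligand for 72 h, and of 14524 genes tested 951 were called higher (6.55%) and 575 lower (3.96%) after 72 h. Of the 931 higher genes that were also tested here, 288 were called higher in LF than in SF (30.9%, against 5.59%) and 13 lower (1.40%, against 1.84%), with a median of 0.50. Of the 569 lower genes 38 were called lower in LF (6.68%) and 27 higher (4.75%), with a median of -0.17. At 10 CPM and above, 89 of 233 higher genes were called higher in LF (38.2%, against 2.24% of all genes at that level). Without the stress response list, 268 of 907 were, with a median of 0.48. Of the 21 stress response genes called here, 20 were also higher after 72 h. The 72 h libraries share no library with LF and SF, but the lists were chosen with earlier results known. The ligand was also followed by changes in the line EV: 469 genes (2.95%) were called higher with ligand in EV, and 126 of them were called higher in LF than in SF (26.9%, against 5.59%) and 14 lower (2.99%, against 1.84%). One EV library with ligand held 2346542 counts and stood apart from the other 2; without it, an alternative chosen after seeing the data, 462 genes were higher with ligand, and of the 456 tested here 125 were called higher in LF and 12 lower.

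Genes with large changes at 72 h, picked for that after their values were seen, are given here with their levels in LF and SF. AIF1L, with an increase of 3.38 at 72 h, was at 4.63, 4.87 and 3.42 CPM in LF and 3.20, 2.31 and 2.94 CPM in SF. ASS1, the citrulline-using enzyme of arginine synthesis, increased by 2.92 at 72 h and was at 4.14, 6.56 and 6.91 CPM in LF and 1.19, 1.52 and 1.44 CPM in SF. PTPRF, a receptor phosphatase, increased by 2.51 and was at 5.69, 5.81 and 8.54 CPM in LF and 2.39, 2.76 and 2.31 CPM in SF. These 3 genes were called higher in LF. LRP4 increased by 2.84 at 72 h but was at 2.92, 2.30 and 3.03 CPM in LF and 3.33, 2.82 and 1.85 CPM in SF, with overlapping libraries, and was the only one of the 12 genes taken for an increase that was not called. G0S2, an inhibitor of lipolysis, increased by 2.19 and differed by 2.22 ± 0.24 between LF and SF. Of the 8 genes taken in the same way for a decrease at 72 h, 2 were called higher in LF (against 5.59% of all genes) and none lower (against 1.84%). These 2 were IL1RL1, with a change of -2.61 at 72 h and a difference of 1.79 ± 0.19 between LF and SF, and CRISP3, with -1.60 and 2.01 ± 0.15. The other 6 were STAP1 (0.21), CFAP210 (0.23), S100A1 (-0.45), CRB2 (-0.54), MIR142HG (-0.51) and MAMDC4 (-0.08), the value in parentheses being LF minus SF.

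**Figure D5:**
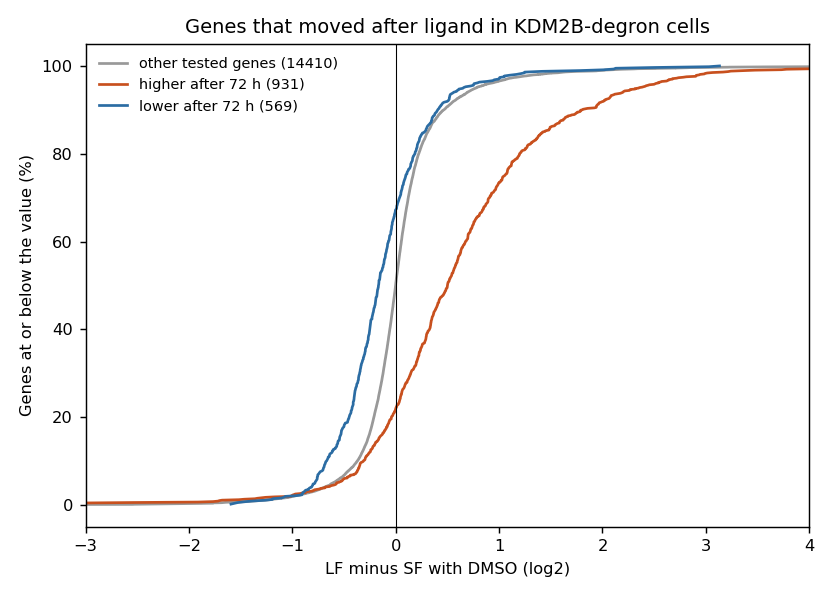
Share of genes (%, vertical axis) at or below a given LF minus SF difference with DMSO (log2, horizontal axis), for 931 genes higher after 72 h of ligand in KDM2B-degron cells (orange), 569 genes lower (blue) and the other tested genes (grey). The orange curve is shifted to the right, with a median of 0.50, and the blue curve slightly to the left, with a median of -0.17.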

How the data were processed

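The authors deposited raw counts per gene ID, and per the labels' protocols total RNA of K562 cells was extracted with RNeasy kits, made into libraries with KAPA RNA HyperPrep with RiboErase and sequenced on a NextSeq500, with STAR mapping to hg38. Strand Avadis NGS is named beside STAR; the counting program, strand setting and annotation release are not given in the sources used. Columns were assigned to groups by name, and replicate numbers are column order. Symbols and positions come from GENCODE release 44. Genes passed filterByExpr (15910 of 60605 IDs); counts were TMM-normalized and fitted over all 30 libraries with edgeR 4.0.16 (quasi-likelihood, robust; common biological coefficient of variation 0.059), tested on simulated data. The KDM2B table of 15 libraries was fitted alike. DESeq2 1.42.0 was an alternative. Floors are 3 counts over a group and intervals are exact at a level of 0.95.

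Up to 15 genes in each direction were named by size of difference among called genes of at least 2 CPM with no overlap and a gene symbol that is no clone, antisense or pseudogene name, up to 6 more at 100 CPM, then called list members, or the 2 highest members of a list without a call. The 28 lists and the members were chosen with earlier results of these data known. Same-numbered LF and SF libraries had correlations of -0.02, 0.06 and 0.00 of their deviations. These values showed no pairing by number, but noise in low counts can hide one, so pairing is not excluded. Pairs of libraries within a group differed by more than sampling noise. The values of 1 called list member are not reported here.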

Additional observations from a re-analysis of the deposited data

How the results depend on the processing

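The count of genes called for LF against SF with DMSO was 1182, and it stayed within 1.5 times of that under every setting tried but a stricter fold. Asking for an absolute log2 difference above 1 gave 661 genes with DMSO, 777 in place of 1501 for LF against SF with ligand, and 789 in place of 1526 for the KDM2B time course, 72 h against untreated. Leaving out 1 library at a time gave 929 to 1241 genes with DMSO, 1354 to 1472 with ligand and 0 to 1 for the LF-SF difference, ligand against DMSO. That last result, 0 genes in the fit reported, gave 1 gene with DESeq2 (THBS1) and 10 genes without a filter on low counts. With the column number as a replicate block, although no pairing by number was seen, 954 genes were called with DMSO, 936 of them shared with the 1182. DESeq2's test called 1096 genes with 1075 shared, and the 6 libraries alone gave 966 with 947 shared. With the 6 libraries alone, HOXA3 did not pass the filter on low counts, with or without the block. FOXD1, NR2F1 and FGFR1 likewise owed their place among the genes tested to lines other than LF and SF. With the block the HOX list had 0 calls in place of 2 and the developmental transcription factors 5 in place of 8. The growth factor and adhesion list had 7 calls towards LF in place of 9. No named gene that was called changed direction, and the calls lost without 1 library are given beside the genes. Some uncalled genes near 0, among them BCOR, PCGF1 and HBZ, had either sign over the fits without 1 library. Depth limits the genes under 1 CPM: of the 890 higher genes 63 had 0 to 3 counts over the SF libraries, and 25 had none.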

Other observations

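Gene families taken whole by symbol, chosen after the data were seen, showed calls that the lists above do not cover. Of 402 tested zinc-finger genes named ZNF, 23 were called higher in LF (5.72%, near the 5.59% of all genes). None was called lower (0%, against 1.84% of all genes), and without LF library 1 the counts were 27 higher and 3 lower. ZNF697 (1.34 ± 0.09) and ZNF521 (1.05 ± 0.10), a regulator of progenitor cells, were among them, as was ZNF91 (1.22 ± 0.27), a primate repressor of retroelements. Of 221 solute carriers 17 were called higher (7.69%, against 5.59% of all genes) and 5 lower (2.26%, against 1.84%), the latter 3 without LF library 1. SLC30A10, a manganese exporter, was higher by 1.20 ± 0.08 and SLC16A9 was lower, with -1.02 ± 0.19. Of 37 aminoacyl-tRNA synthetase genes CARS1 (0.70 ± 0.06) and WARS1 (0.83 ± 0.06) were called higher (5.41% of the family, against 5.59% of all genes, and 4 genes without LF library 1), and 14 more had an adjusted p under 0.05 towards LF at smaller differences, with a family median of 0.13. SEMA4D (2.35 ± 0.23), a semaphorin of immune cells, and COL6A3 (2.11 ± 0.15), a microfibrillar collagen, were higher in LF. None of 82 ribosomal protein genes and none of 21 tubulin genes was called in either direction.

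Of the genes called higher in LF, 25 had no count in any SF library with DMSO, and 1 of them stood apart. PAG1, an adaptor that recruits the kinase CSK, had 122 counts in LF, at 2.52, 3.45 and 3.11 CPM, which is at least 51.9-fold higher against a floor of 3 counts over the SF libraries. It was at 2.29 to 2.99 CPM in EV and at 0.161, 0.169 and 0.0677 CPM in the SF libraries with ligand, so among these lines SF was the one with PAG1 near 0. No other of the 25 genes had a bound above 10-fold. PAG1 and the families in the paragraph above were singled out after their values were seen.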
